A study of Mus musculus with 4 samples.

Results

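Translation initiation factors are the proteins that bring the initiator tRNA and the small ribosomal subunit to the start codon of an mRNA. The genes described here are the 54 of 24421 deposited genes whose symbol starts with Eif and a digit from 1 to 6, leaving out Eif2s3y. They are 5 Eif1, 9 Eif2, 5 Eif2b, 14 Eif3, 16 Eif4, 4 Eif5 and 1 Eif6 genes, and each symbol matched a gene of the GENCODE annotation. The symbol rule also takes in regulators of the factors, namely the kinases of eIF2 (Eif2ak genes) and proteins that bind eIF4E (Eif4ebp genes and Eif4enif1).

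The excitatory pair is 2 RNA-seq libraries of aCaMKII-positive brain neurons, and the inhibitory pair 2 libraries of vGAT-positive ones. Each was made from 100 fluorescent cells picked by hand from male mice of 3 to 5 months. The colonies named are αCaMKII-Cre and vGAT-IRES-Cre, bred to wild-type C57Bl/6J mice, so a label rests on where that Cre driver is active. The series is about ERK signalling in a model of Noonan syndrome, but no mutant allele is named for these 4 libraries. No label ties a library to an animal, and p-values here measure only the spread between libraries, which may be technical.

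A value is the deposited log2(normalized reads + 1), and a difference is excitatory minus inhibitory on that scale. Over all 13619 tested genes the median difference was 0.52 as deposited and -0.0061 after median-of-ratios scaling of the libraries, and each difference stands beside its scaled value. The authors' scaling is not stated in the sources used here, and it differed between libraries: the step between low linear values, taken as 1 read, was 1.29 and 1.23 in the excitatory pair and 0.72 and 0.874 in the inhibitory pair. Mbp, the myelin basic protein gene and the highest in each library, had the same value in all 4. The scaled values take up a single factor per library, and what else the equal Mbp value may mean for differences and shares of linear values was not tested. Values are given for library 1 and then library 2 of each pair. Unless an overlap is stated, both values of 1 pair lay above both of the other. A call is lost without a library where the adjusted p of the fit that leaves it out was 0.05 or more. Depth, estimated from the spacing of the lowest values, was about 62000000 and 63000000 reads in the excitatory pair and 74200000 and 62200000 reads in the inhibitory pair.

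Markers followed the labels only in part. Of all tested genes 45% were higher and 26.8% lower in the excitatory pair, and marker counts are read against these shares. Of 8 excitatory neuron markers 4 were higher and 2 lower in the excitatory pair (50% and 25%, near those of all genes), where together they held 0.134% and 0.132% of all linear values, against 0.105% and 0.106% in the inhibitory pair. Of 8 inhibitory neuron markers, 7 of them tested, 3 were higher and 1 lower (0.0207% and 0.0177% in the excitatory pair, 0.0167% and 0.0181% in the inhibitory pair), and Slc32a1, which encodes vGAT, stood at 0 throughout. Oligodendrocyte markers held 3.64% and 3.69% in the excitatory pair and 5.02% and 4.94% in the inhibitory pair. Of the 6 oligodendrocyte markers 3 were higher and 0 lower in the excitatory pair (50% and 0%). Astrocyte markers held 1.01% and 1% in the excitatory pair and 0.794% and 0.822% in the inhibitory pair. Of the 6 astrocyte markers 5 were higher and 0 lower in the excitatory pair (83.3% and 0%). After scaling 3 astrocyte markers were higher and 1 lower (50% and 16.7%, against 32.4% and 33.5% of all tested genes). Microglia and leukocyte markers, of which 0 were higher and 4 of 6 lower in the excitatory pair (66.7%), held 0.0173% and 0.0206% there and 0.0816% and 0.0639% in the inhibitory pair. No marker of these 3 glial lists was at 0 in every library. Of 6 endothelial markers 4 were. Excitatory and inhibitory below therefore name libraries by their labels, and the part of other cells in the differences was not tested. Fewer cells of a type and less RNA per cell cannot be told apart.

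In initiation, eIF2 carries the initiator tRNA together with GTP, and the exchange factor eIF2B recharges it. Stress kinases phosphorylate the alpha subunit of eIF2, which then blocks eIF2B and lowers most protein synthesis. In neurons this switch and the cap-binding step are known to bear on long-lasting synaptic plasticity. eIF3 is a large scaffold on the small ribosomal subunit, the eIF4 factors bind the cap and unwind the mRNA leader, and eIF5 and eIF5B act as the start codon is found and the subunits join.

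Promoter sequences are shown for 4 genes of the eIF2 arm, chosen because the eIF2B subunit genes Eif2b1 and Eif2b5 were higher and Eif2b2 lower in the excitatory pair, and because the eIF2 kinase gene Eif2ak2 had a large difference. Each is the 250 bases before the RefSeq start (GRCm38.p6), 5′ to 3′ on the strand of the gene. The regions are chr5:124579132-124579381 (minus strand) for Eif2b1, chr16:20498567-20498816 (plus strand) for Eif2b5, chr12:85219231-85219480 (plus strand) for Eif2b2 and chr17:78882573-78882822 (minus strand) for Eif2ak2. Capitals mark a match, on either strand, to the CCAAT box (CCAAT), the GC box (GGGCGG), the E-box (CACGTG), the TATA box (TATAAA), the cyclic AMP response element (TGACGTCA), the interferon-stimulated response element or the NRF1 motif, none of which contains another.
Eif2b1: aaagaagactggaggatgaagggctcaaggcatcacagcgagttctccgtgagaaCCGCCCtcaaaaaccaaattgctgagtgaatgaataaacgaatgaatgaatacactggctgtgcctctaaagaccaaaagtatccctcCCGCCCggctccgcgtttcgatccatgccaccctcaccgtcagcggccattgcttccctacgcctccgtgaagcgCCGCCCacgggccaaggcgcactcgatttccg
Eif2b5: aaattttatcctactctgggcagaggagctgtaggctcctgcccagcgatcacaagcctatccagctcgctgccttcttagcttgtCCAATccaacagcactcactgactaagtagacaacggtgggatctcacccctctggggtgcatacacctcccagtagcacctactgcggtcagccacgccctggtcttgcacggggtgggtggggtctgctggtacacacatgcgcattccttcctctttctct
Eif2b2: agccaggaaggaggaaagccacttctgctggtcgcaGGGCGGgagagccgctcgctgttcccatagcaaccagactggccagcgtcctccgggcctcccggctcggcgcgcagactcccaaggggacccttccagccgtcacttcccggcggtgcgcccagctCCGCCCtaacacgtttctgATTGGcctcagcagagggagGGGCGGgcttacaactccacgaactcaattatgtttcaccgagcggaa
Eif2ak2: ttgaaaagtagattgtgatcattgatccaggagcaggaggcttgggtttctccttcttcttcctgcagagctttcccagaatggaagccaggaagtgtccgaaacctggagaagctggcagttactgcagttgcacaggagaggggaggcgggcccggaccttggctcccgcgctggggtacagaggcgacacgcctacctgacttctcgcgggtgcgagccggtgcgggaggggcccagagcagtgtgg
The GC box letters occur 3 times before Eif2b1 and 3 times before Eif2b2, and CCAAT once before Eif2b5 and once before Eif2b2. No match was found before Eif2ak2, which says only that these letters are not in its window. RefSeq promoters were at hand for 42 of the 54 genes, with 55 starts, beside 32851 starts in the whole table. GGGCGG was found before 67.3% of the 55 starts (37) and 32.7% of all, CACGTG before 20% of the 55 starts (11) and 6.02% of all, CCAAT before 25.5% of the 55 starts (14) and 33.9% of all and TATAAA before 5.46% of the 55 starts (3) and 12.4% of all. TGACGTCA was found before 0 of the 55 starts (1.55% of all), the interferon-stimulated response element before 2 (2.98% of all) and the NRF1 motif before 1 (0.782% of all). A match is a run of letters and was not tested as a binding site.

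Of the 54 genes, 50 reached a value of 1 in 2 or more libraries and were tested. By limma, at an adjusted p of 0.05, 28 were higher in the excitatory pair (56%, against 45% of all tested genes) and 10 were lower (20%, against 26.8%). Together 76% passed, near the 71.8% of all genes. After scaling 16 were higher (32%, against 32.4% of all) and 14 lower (28%, against 33.5%), in all 60% against 65.9%. The median difference of the members was 0.55 as deposited and 0.0066 scaled. Counts and medians of the whole set were thus near those of all genes, while single genes differed widely. A gene at or near 0 in both libraries of a pair was tested only because of its values in the other pair. Its adjusted p is given below but not read as support for a difference. Among the members these genes are Eif1a, Eif2b1, Eif2d and Eif2ak3.

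In both scalings 26 genes passed, each in the same direction: 16 higher (32%, against 32.4% of all tested genes) and 10 lower (20%, against 26.8%). Of these, 15 also passed as deposited when any single library was left out. Higher among them were Eif1a, Eif2ak2, Eif2b1, Eif2b3, Eif3d, Eif3g, Eif3h, Eif3m, Eif4e2, Eif5a and Eif6, and lower were Eif2s1, Eif2b2, Eif4enif1 and Eif5a2. Eif1a and Eif2b1 were tested only because of their values in the excitatory pair, so their place among the 15 is not read as support. When an excitatory library is left out, the only gap within a pair for Eif2b1 lies between values of 0. The same count was not made over all genes, so it has no background share.

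**Figure D1:**
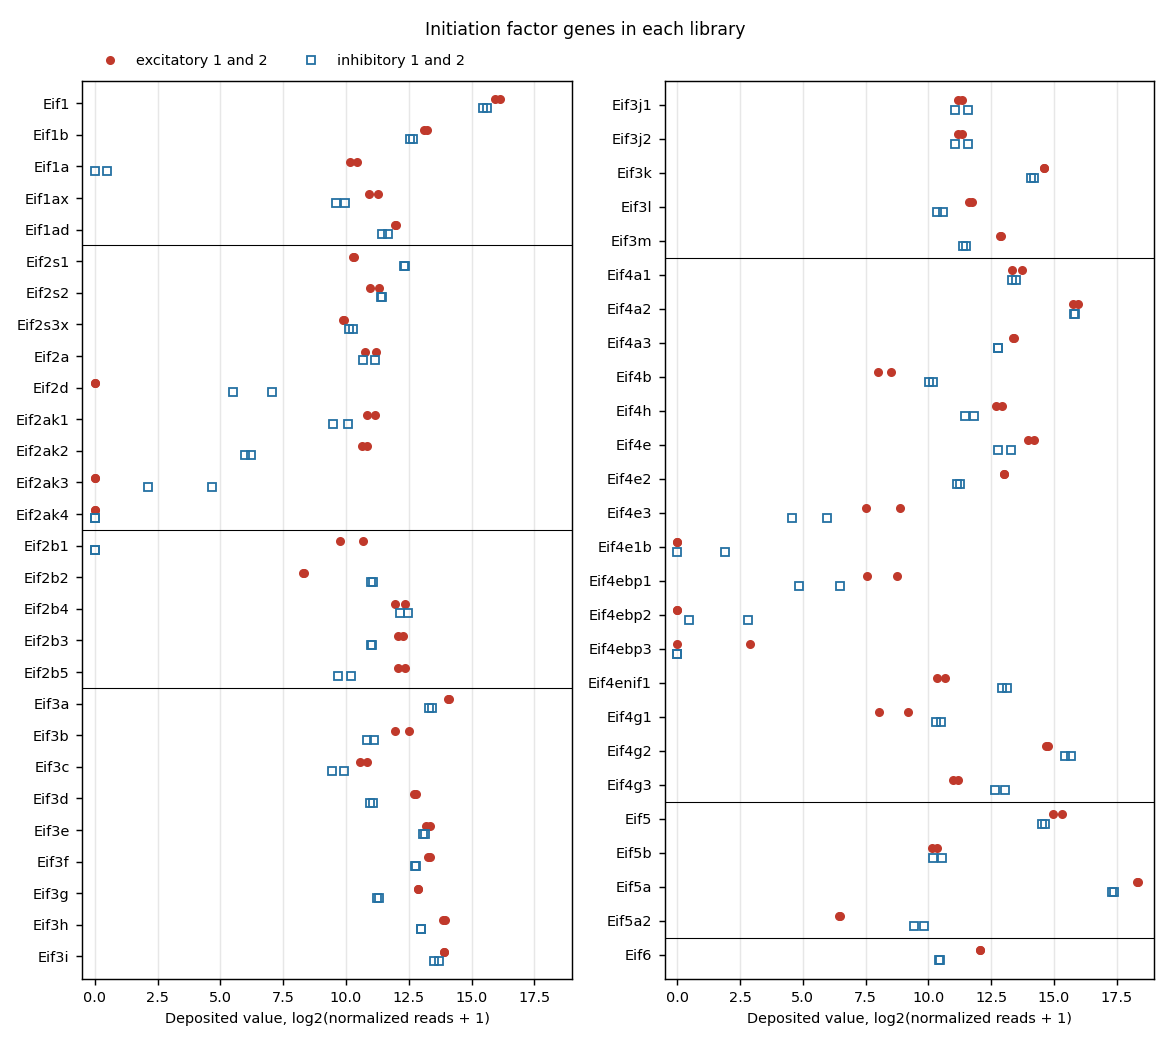
Deposited value of each of the 54 genes, in log2(normalized reads + 1), in the 2 excitatory and the 2 inhibitory libraries, with genes ordered by factor. Eif1a and Eif2b1 are at or near 0 in the inhibitory pair, Eif2d and Eif2ak3 are at 0 in the excitatory pair, and Eif5a is the highest in all 4 libraries.

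Libraries of a pair lay close together for most genes. Over the 46 genes above 0 in all 4 libraries the median gap was 0.174 within the excitatory pair and 0.183 within the inhibitory pair. The plot of values by library shows most genes with 2 nearly coincident points per pair. Together the genes held 0.959% and 0.967% of all linear values in the excitatory pair and 0.956% and 0.952% in the inhibitory pair, nearly the same share.

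The Eif1 genes encode small factors that keep the ribosome scanning until a start codon is met. Eif1 had 16.11 and 15.95 in the excitatory pair and 15.47 and 15.61 in the inhibitory pair (difference 0.49, SE 0.092, adjusted p = 0.00783; scaled -0.055, adjusted p = 0.527). Its close relative Eif1b had 13.09 and 13.23 in the excitatory pair and 12.54 and 12.66 in the inhibitory pair (difference 0.56, SE 0.12, adjusted p = 0.0136; scaled 0.016, adjusted p = 0.921). The pairs did not overlap in either gene as deposited, and neither gene passed after scaling. The call was lost without any single library (adjusted p 0.0753 to 0.118) for Eif1 and without any single library (adjusted p 0.0597 to 0.0867) for Eif1b. Within libraries Eif1 made up 81.3% and 77.9% of the level of both genes per kb of exon in the excitatory pair and 80.3% and 80.6% in the inhibitory pair.

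Eif1a and Eif1ax encode forms of eIF1A, which works beside eIF1 on the small subunit. Eif1a had 10.14 and 10.45 in the excitatory pair and 0.48 and 0 in the inhibitory pair (adjusted p = 9.49e-05, scaled 0.000127). The X-linked Eif1ax was high in both, with 11.29 and 10.90 in excitatory and 9.61 and 9.94 in inhibitory libraries, and was 2.49-fold higher in the excitatory pair (difference 1.32, SE 0.24, adjusted p = 0.00707; scaled 0.78, adjusted p = 0.0313), a call lost without any single library (adjusted p 0.0634 to 0.0975). Per kb, Eif1a made up 36.4% and 48.1% of the 2 genes in the excitatory pair and 0.0633% and 0% in the inhibitory pair. Of the 50-base windows of Eif1a transcripts, 2.62% also occur in transcripts of other genes. Eif1ad, which shares a domain with eIF1A, had 11.95 and 11.99 in excitatory and 11.44 and 11.66 in inhibitory libraries and did not pass (difference 0.42, 95% interval 0.012 to 0.83, adjusted p = 0.0621; scaled -0.12, adjusted p = 0.506).

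Among the subunits of eIF2 the alpha subunit differed most. Eif2s1, the alpha subunit that stress kinases phosphorylate, had 10.27 and 10.31 in the excitatory pair and 12.34 and 12.30 in the inhibitory pair, 4.08-fold lower in the excitatory pair (difference -2.03, SE 0.15, adjusted p = 0.000372; scaled -2.57, adjusted p = 0.000266). The gene lies at chr12:78861819-78887010 (plus strand) of mm10. Eif2s2, the beta subunit, had 11.33 and 10.97 in excitatory and 11.43 and 11.40 in inhibitory libraries and did not pass as deposited (difference -0.26, 95% interval -0.76 to 0.24, adjusted p = 0.27; scaled -0.80, adjusted p = 0.0155). Eif2s3x, the gamma subunit that binds GTP and the tRNA, had 9.92 and 9.88 in excitatory and 10.28 and 10.10 in inhibitory libraries and did not pass as deposited either (difference -0.29, 95% interval -0.81 to 0.23, adjusted p = 0.238; scaled -0.83, adjusted p = 0.0201). After scaling both were lower in the excitatory pair. The ratio of Eif2s1 to Eif2s2 per kb, which no scaling of a library changes, was 0.656 and 0.863 in the excitatory pair and 2.56 and 2.56 in the inhibitory pair. Of the Eif2s3x windows 34.6% occur in other transcripts, so its value is less certain.

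The eIF2 kinase genes did not move together. Eif2ak2 encodes PKR, which senses double-stranded RNA and is induced by interferon. It had 10.85 and 10.62 in the excitatory pair and 6.23 and 5.99 in the inhibitory pair, 24.7-fold higher in the excitatory pair (difference 4.63, SE 0.26, adjusted p = 0.000176; scaled 4.09, adjusted p = 0.000314). Its exons at chr17:78852564-78882573 (minus strand) share 221 bases with genes on the other strand, and the kits are not stated to keep strand. Exons of Eif2ak1 share 659 bases with genes on the other strand. Eif2ak1, the heme-sensing kinase HRI, had 10.83 and 11.15 in excitatory and 10.06 and 9.47 in inhibitory libraries and passed as deposited but not after scaling (difference 1.23, SE 0.28, adjusted p = 0.0152; scaled 0.68, adjusted p = 0.118); the first call was lost without any single library (adjusted p 0.0568 to 0.179).

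Eif2ak3 encodes PERK, the kinase of the endoplasmic reticulum. It was at 0 in the excitatory pair and had 4.67 and 2.12 in the inhibitory pair (adjusted p = 0.025, scaled 0.0275). The inhibitory values lay far apart, and the call was lost without excitatory 1 (adjusted p = 0.248) or excitatory 2 (adjusted p = 0.247). Eif2ak4, the amino acid sensor GCN2, stood at 0 in every library. A listed 0 may be a failed estimate and is not read as absence here. In all, 1068 of the 13619 tested genes were at 0 throughout the excitatory pair and 1046 throughout the inhibitory pair. Of the 50 tested members these were Eif2d and Eif2ak3 in the excitatory pair and Eif2b1 in the inhibitory pair. That is not a larger share than of all tested genes. Of all 54 members, untested ones included, 5 were at 0 throughout the excitatory pair and 3 throughout the inhibitory pair, Eif2ak4 being counted in each.

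Eif2a and Eif2d encode proteins that can bring tRNA to the ribosome without eIF2. For Eif2a the pairs overlapped, with 11.21 and 10.75 in excitatory and 11.17 and 10.68 in inhibitory libraries (difference 0.055, 95% interval -0.67 to 0.78, adjusted p = 0.868; scaled -0.49, adjusted p = 0.193). Eif2d was at 0 in the excitatory pair and had 7.05 and 5.51 in the inhibitory pair (adjusted p = 0.000894, scaled 0.00119). Its call was lost without excitatory 1 (adjusted p = 0.0668) or excitatory 2 (adjusted p = 0.0668).

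Subunit genes of eIF2B went in opposite directions. eIF2B has a catalytic pair, epsilon (Eif2b5) and gamma (Eif2b3), and a regulatory core of alpha (Eif2b1), beta (Eif2b2) and delta (Eif2b4) that reads the phosphorylation of eIF2. Mutations in these genes are known to cause vanishing white matter disease in people. Of the 5 genes, 3 were higher and 1 lower in the excitatory pair in both scalings (60% and 20%). Eif2b1 is among the 3 and was tested only because of its values in the excitatory pair, so the 60% is not read as support. Of all tested genes 45% were higher and 26.8% lower as deposited, and 32.4% and 33.5% after scaling.

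Both catalytic genes were higher. Eif2b5 had 12.36 and 12.08 in the excitatory pair and 9.70 and 10.21 in the inhibitory pair, a 4.81-fold difference (difference 2.27, SE 0.25, adjusted p = 0.00123; scaled 1.73, adjusted p = 0.00263) whose call was lost without excitatory 1 (adjusted p = 0.0669) or excitatory 2 (adjusted p = 0.059). Eif2b3 had 12.08 and 12.26 in excitatory and 11.04 and 11 in inhibitory libraries (difference 1.15, SE 0.15, adjusted p = 0.00241; scaled 0.61, adjusted p = 0.0293). In the regulatory core, Eif2b1 had 10.68 and 9.76 in the excitatory pair, and the tables list it at 0 for both inhibitory libraries (adjusted p = 0.000104, scaled 0.000135). Eif2b2 had 8.34 and 8.30 in the excitatory pair and 11 and 11.09 in the inhibitory pair, 6.63-fold lower in the excitatory pair (difference -2.73, SE 0.20, adjusted p = 0.000357; scaled -3.27, adjusted p = 0.000249). For Eif2b4 the pairs overlapped, with 11.94 and 12.34 in excitatory and 12.48 and 12.15 in inhibitory libraries (difference -0.18, 95% interval -0.74 to 0.39, adjusted p = 0.493; scaled -0.72, adjusted p = 0.0555).

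Within libraries the level of Eif2b5 per kb was 11.8 and 10 times that of Eif2b2 in the excitatory pair, against 0.293 and 0.395 times in the inhibitory pair. These are the genes whose promoters are printed above. On mm10 Eif2b1 lies at chr5:124570213-124579131 (minus strand), Eif2b2 at chr12:85219481-85226628 (plus strand) and Eif2b5 at chr16:20498817-20509323 (plus strand). Their exons share no base with another annotated gene, and none of their 50-base windows occurs in another gene's transcripts.

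**Figure D2:**
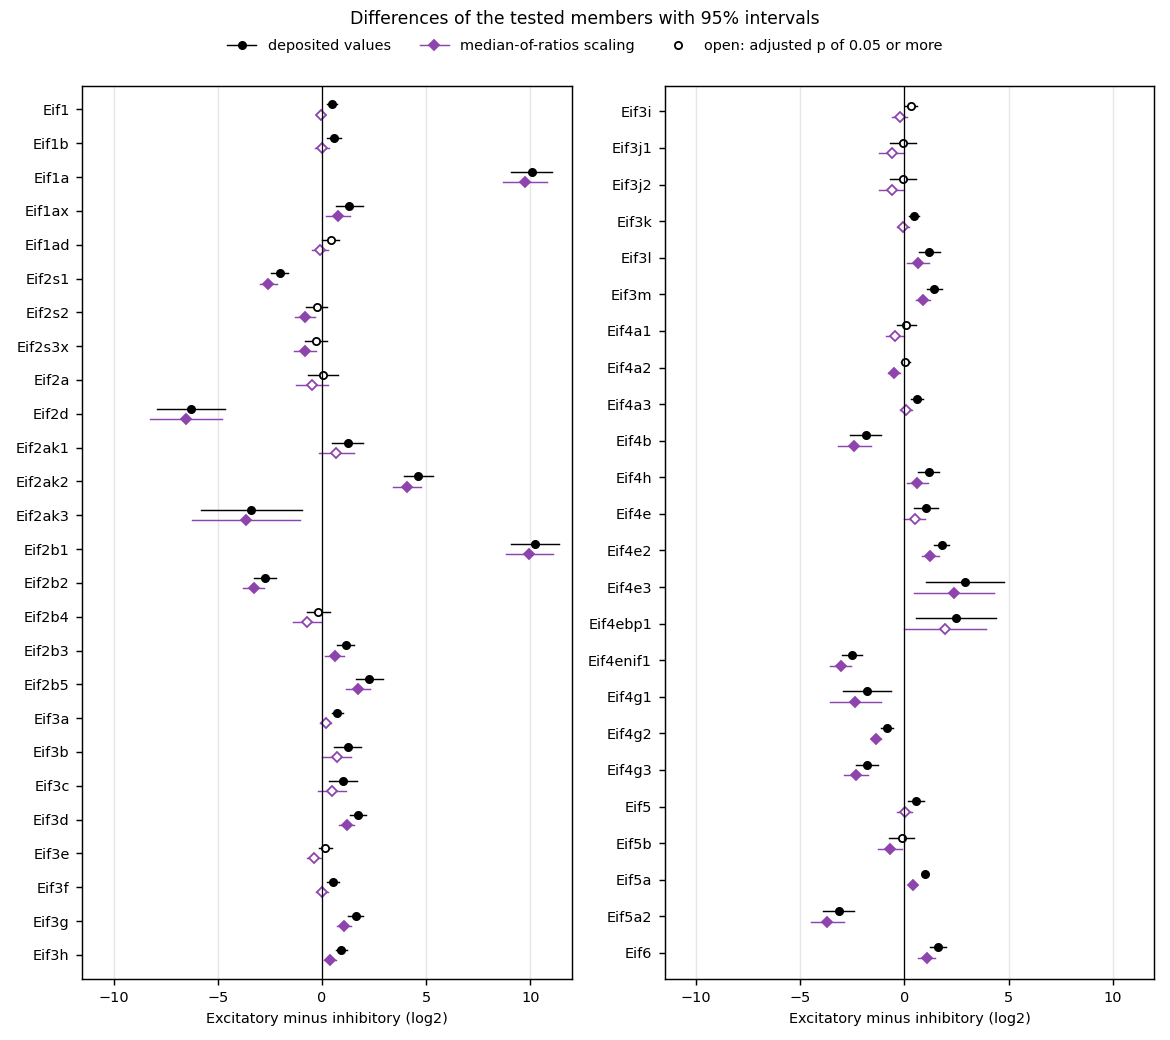
Difference of each of the 50 tested genes, excitatory minus inhibitory in log2 units, with its 95% interval from limma, as deposited and after median-of-ratios scaling. Eif1a (10.06) and Eif2b1 (10.22) lie far to the right, where the inhibitory pair is at or near 0, Eif2d (-6.28) lies far to the left, where the excitatory pair is at 0, and scaling lowers each difference shown.

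eIF3 holds the small subunit, the mRNA and other factors together. Of its 14 genes 10 were higher in the excitatory pair, 0 lower and 4 did not pass (median 0.83). As shares this is 71.4% higher and 0% lower, against 45% and 26.8% of all tested genes. After scaling 5 were higher, 0 lower and 9 did not pass (median 0.28), which is 35.7% higher and 0% lower, against 32.4% and 33.5% of all genes. In the plot of differences the eIF3 genes lie between 0.17 (Eif3e) and 1.73 (Eif3d) as deposited, apart from Eif3j1 and Eif3j2 at -0.061.

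The genes that passed in both scalings were Eif3d, Eif3g, Eif3h, Eif3l and Eif3m. Eif3g, an RNA-binding subunit that works in scanning, had 12.86 and 12.88 in the excitatory pair and 11.22 and 11.30 in the inhibitory pair (difference 1.61, SE 0.13, adjusted p = 0.00050; scaled 1.07, adjusted p = 0.00208). Eif3d, which in human cells can itself bind the cap of some mRNAs, had 12.79 and 12.69 in excitatory and 10.96 and 11.06 in inhibitory libraries (difference 1.73, SE 0.14, adjusted p = 0.000508; scaled 1.18, adjusted p = 0.00161). Exons of Eif3d share 2151 bases with an antisense gene, in which 37.2% of its windows also occur, and without a stated strand the reads of that shared stretch cannot be told apart. Eif3m had 12.84 and 12.90 in excitatory and 11.37 and 11.49 in inhibitory libraries (difference 1.45, SE 0.13, adjusted p = 0.000734; scaled 0.90, adjusted p = 0.00389), and Eif3h had 13.93 and 13.87 in excitatory and 12.98 and 12.97 in inhibitory libraries (difference 0.93, SE 0.099, adjusted p = 0.00116; scaled 0.38, adjusted p = 0.0263). Of the windows of these genes 18.4% for Eif3m and 20.3% for Eif3h occur in other transcripts. Eif3l had 11.74 and 11.61 in excitatory and 10.60 and 10.34 in inhibitory libraries (difference 1.20, SE 0.18, adjusted p = 0.00369; scaled 0.66, adjusted p = 0.0348), a call lost without excitatory 1 (adjusted p = 0.0681) or excitatory 2 (adjusted p = 0.0606).

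The core scaffold genes passed as deposited only. Eif3a had 14.07 and 14.11 in the excitatory pair and 13.31 and 13.42 in the inhibitory pair (difference 0.73, SE 0.099, adjusted p = 0.00256; scaled 0.19, adjusted p = 0.156). Eif3b had 11.95 and 12.49 in excitatory and 10.85 and 11.11 in inhibitory libraries (difference 1.24, SE 0.24, adjusted p = 0.00893; scaled 0.70, adjusted p = 0.0667), a call lost without excitatory 2 (adjusted p = 0.0813), inhibitory 1 (adjusted p = 0.146) or inhibitory 2 (adjusted p = 0.11). Eif3c had 10.54 and 10.83 in excitatory and 9.43 and 9.90 in inhibitory libraries (difference 1.01, SE 0.26, adjusted p = 0.0204; scaled 0.47, adjusted p = 0.159), a call lost without any single library (adjusted p 0.0663 to 0.177). Eif3f and Eif3k likewise passed as deposited, by 0.54 and 0.47 (adjusted p = 0.00982 and 0.00721), about the shift of all genes, and did not pass after scaling (0.00084 and -0.076, adjusted p = 0.996 and 0.556). Their calls were lost without inhibitory 1 (adjusted p = 0.0542) or inhibitory 2 (adjusted p = 0.0555) for Eif3f, and without excitatory 1 (adjusted p = 0.0713) or excitatory 2 (adjusted p = 0.0727) for Eif3k.

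The remaining eIF3 genes passed in neither scaling. Eif3e had 13.19 and 13.33 in excitatory and 13.13 and 13.06 in inhibitory libraries (difference 0.17, 95% interval -0.14 to 0.47, adjusted p = 0.249; scaled -0.38, adjusted p = 0.060), and Eif3i had 13.91 and 13.91 in excitatory and 13.69 and 13.49 in inhibitory libraries (difference 0.32, 95% interval 0.019 to 0.61, adjusted p = 0.0568; scaled -0.23, adjusted p = 0.198). Eif3j1 and Eif3j2 had the same value in each library, 11.17 and 11.34 in excitatory and 11.05 and 11.58 in inhibitory libraries, and the pairs overlapped. Since 91.9% of Eif3j2 windows occur in other transcripts, most often in Eif3j1, these are not separate measurements and the 54 genes hold 53 sets of values. Per kb of exon the highest eIF3 gene was 24.6 and 20.9 times the lowest in the excitatory pair (Eif3h over Eif3j1), and 35.3 and 23.8 times in the inhibitory pair (Eif3k over Eif3c).

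In the eIF4 group, eIF4E binds the cap, eIF4G is the scaffold and eIF4A the helicase. The 3 tested cap-binding genes were all higher and the 3 scaffold genes all lower in the excitatory pair as deposited. Of all tested genes 45% were higher and 26.8% lower. After scaling 2 of the cap-binding genes were higher, against 32.4% of all genes. Eif4e, whose protein is phosphorylated by the ERK-dependent MNK kinases, had 14.19 and 13.98 in the excitatory pair and 12.77 and 13.31 in the inhibitory pair, a 2.07-fold difference that did not pass after scaling (difference 1.05, SE 0.21, adjusted p = 0.01; scaled 0.50, adjusted p = 0.069). Its call was lost without excitatory 1 (adjusted p = 0.182), excitatory 2 (adjusted p = 0.141) or inhibitory 1 (adjusted p = 0.0754). Eif4e2, also called 4EHP and known as a repressor at the cap, had 13 and 13 in excitatory and 11.27 and 11.14 in inhibitory libraries, 3.48-fold higher (difference 1.80, SE 0.13, adjusted p = 0.000393; scaled 1.26, adjusted p = 0.00193). Eif4e3 had 8.86 and 7.51 in excitatory and 5.97 and 4.56 in inhibitory libraries, with a wide gap within each pair (difference 2.92, SE 0.71, adjusted p = 0.0177; scaled 2.39, adjusted p = 0.0408), and its call was lost without any single library (adjusted p 0.106 to 0.206). Its exons overlap another protein-coding gene on the same strand by 373 bases. Eif4e1b was above 0 in inhibitory 1 alone (1.91) and was not tested.

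All 3 scaffold genes were lower in the excitatory pair in both scalings, with no overlap between pairs. Of all tested genes 26.8% were lower as deposited and 33.5% after scaling. Eif4g1, the best studied form, had 8.03 and 9.18 in the excitatory pair and 10.50 and 10.32 in the inhibitory pair (difference -1.81, SE 0.43, adjusted p = 0.0171; scaled -2.35, adjusted p = 0.0107), a call lost without inhibitory 1 (adjusted p = 0.212) or inhibitory 2 (adjusted p = 0.186). Eif4g3 had 10.97 and 11.18 in excitatory and 13.04 and 12.67 in inhibitory libraries (difference -1.79, SE 0.19, adjusted p = 0.00121; scaled -2.33, adjusted p = 0.00106), a call lost without excitatory 1 (adjusted p = 0.0617) or excitatory 2 (adjusted p = 0.0551). Eif4g2, also called DAP5, lacks the part that binds eIF4E. It had 14.75 and 14.70 in excitatory and 15.43 and 15.67 in inhibitory libraries (difference -0.82, SE 0.10, adjusted p = 0.00206; scaled -1.36, adjusted p = 0.000305), a call lost without excitatory 1 (adjusted p = 0.0811) or excitatory 2 (adjusted p = 0.0865). Per kb Eif4g2 made up 92.6% and 90.1% of the 3 genes in the excitatory pair and 81.9% and 87% in the inhibitory pair. The summed level per kb of Eif4e, Eif4e2 and Eif4e3 was 1.5 and 1.32 times that of the scaffold genes in the excitatory pair and 0.286 and 0.339 times in the inhibitory pair, a ratio within libraries.

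For the eIF4A helicase genes Eif4a1 and Eif4a2 the pairs overlapped. Eif4a2, the form known as abundant in brain, had 15.77 and 15.95 in the excitatory pair and 15.78 and 15.85 in the inhibitory pair (difference 0.043, 95% interval -0.18 to 0.27, adjusted p = 0.673; scaled -0.50, adjusted p = 0.0116), so that it passed as lower after scaling alone. Eif4a1 had 13.71 and 13.32 in excitatory and 13.49 and 13.34 in inhibitory libraries and passed in neither (difference 0.10, 95% interval -0.35 to 0.55, adjusted p = 0.622; scaled -0.44, adjusted p = 0.072). Per kb Eif4a2 made up 77.2% and 83.4% of both in the excitatory pair and 80% and 82.3% in the inhibitory pair. Of the Eif4a1 windows 28.4% occur in other transcripts. Eif4a3, which belongs to the exon junction complex, had 13.36 and 13.41 in excitatory and 12.76 and 12.77 in inhibitory libraries (difference 0.62, SE 0.11, adjusted p = 0.0056; scaled 0.077, adjusted p = 0.579) and passed as deposited only.

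The cofactors of the helicase went in opposite directions. Eif4b had 7.99 and 8.51 in the excitatory pair and 10.18 and 10.02 in the inhibitory pair, 3.61-fold lower in the excitatory pair (difference -1.85, SE 0.28, adjusted p = 0.0036; scaled -2.39, adjusted p = 0.00244), a call lost without inhibitory 1 (adjusted p = 0.0866) or inhibitory 2 (adjusted p = 0.0763). Eif4h had 12.68 and 12.94 in excitatory and 11.47 and 11.80 in inhibitory libraries, 2.25-fold higher (difference 1.17, SE 0.19, adjusted p = 0.00433; scaled 0.63, adjusted p = 0.0358), a call lost without any single library (adjusted p 0.0509 to 0.0917). Per kb Eif4b was 4.57% and 5.42% of the 2 genes in the excitatory pair, against 33.6% and 26.5% in the inhibitory pair. The plot of shares sets this beside the other gene families.

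**Figure D3:**
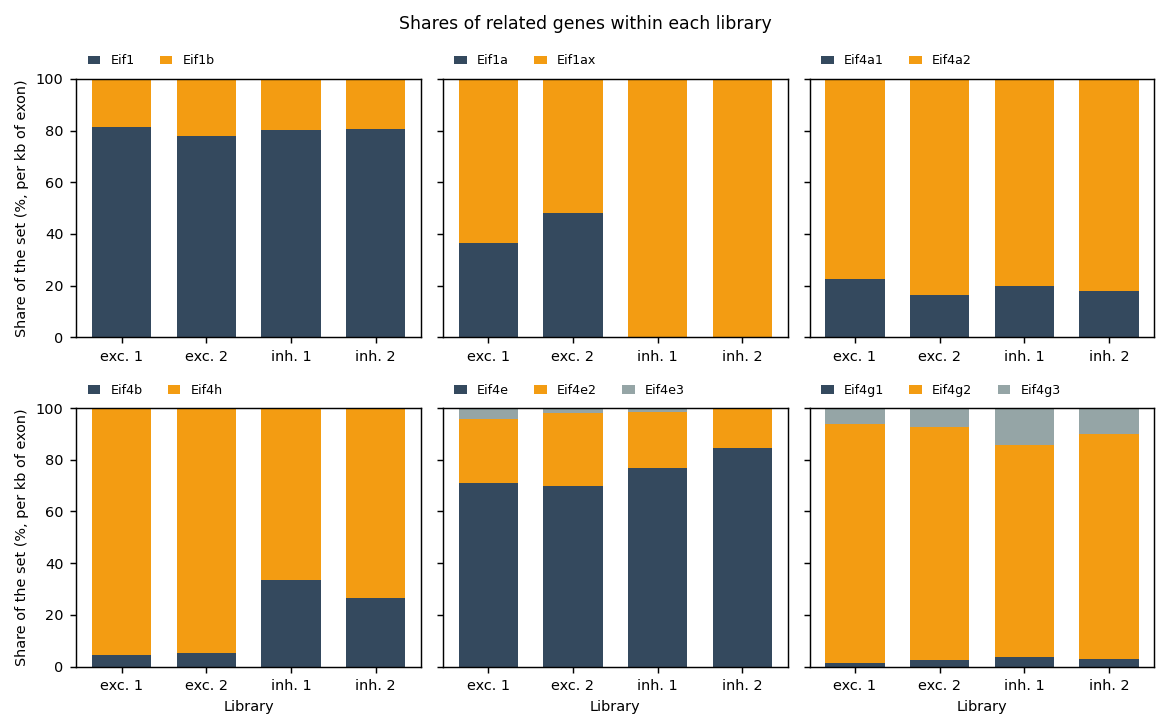
Share of each gene in a set of related genes, in percent of the set's summed linear value per kb of exon, in each of the 4 libraries. The shares of Eif1 with Eif1b and of Eif4a1 with Eif4a2 are alike in all libraries, while Eif1a takes 36.4% and 48.1% of its set in the excitatory pair and 0.0633% and 0% in the inhibitory pair, and Eif4b 4.57% and 5.42% in the excitatory pair and 33.6% and 26.5% in the inhibitory pair.

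Proteins that bind eIF4E and keep it from eIF4G were mixed. Eif4enif1 encodes 4E-T, which takes eIF4E into the nucleus and to P-bodies. It had 10.67 and 10.35 in the excitatory pair and 13.13 and 12.92 in the inhibitory pair, 5.72-fold lower in the excitatory pair (difference -2.52, SE 0.19, adjusted p = 0.000381; scaled -3.06, adjusted p = 0.000291). Eif4ebp1, whose protein lets go of eIF4E when mTORC1 phosphorylates it, had 7.54 and 8.74 in excitatory and 4.85 and 6.49 in inhibitory libraries and passed as deposited but not scaled (difference 2.47, SE 0.73, adjusted p = 0.033; scaled 1.94, adjusted p = 0.0749); the call was lost without any single library (adjusted p 0.102 to 0.297). Eif4ebp2, known as the main form in brain, was at 0 in the excitatory pair with 0.48 and 2.82 in the inhibitory pair, and Eif4ebp3 was above 0 in excitatory 1 alone (2.91). Neither was tested.

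Eif5 and Eif5b act at the end of scanning. Eif5, whose protein makes eIF2 hydrolyse its GTP, had 15.32 and 14.95 in the excitatory pair and 14.51 and 14.65 in the inhibitory pair (difference 0.55, SE 0.15, adjusted p = 0.0258; scaled 0.012, adjusted p = 0.941), and its call as deposited was lost without any single library (adjusted p 0.0574 to 0.253). Eif5b, which joins the subunits, had overlapping pairs with 10.13 and 10.36 in excitatory and 10.20 and 10.56 in inhibitory libraries (difference -0.13, 95% interval -0.74 to 0.47, adjusted p = 0.624; scaled -0.68, adjusted p = 0.049) and passed as lower after scaling alone. Exons of Eif5b share 1643 bases with a gene on the other strand.

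Eif5a and Eif5a2 encode proteins that carry the amino acid hypusine and help the ribosome through difficult sequences. They differed in opposite directions. Eif5a had 18.36 and 18.32 in the excitatory pair and 17.40 and 17.32 in the inhibitory pair, 1.97-fold higher in the excitatory pair (difference 0.98, SE 0.045, adjusted p = 0.000116; scaled 0.44, adjusted p = 0.00502). It was the highest of the 54 genes per kb in every library and held 43.6% and 43.7% of their summed linear values in the excitatory pair and 33.9% and 31.6% in the inhibitory pair. Eif5a2 had 6.46 and 6.49 in the excitatory pair and 9.83 and 9.43 in the inhibitory pair, 8.9-fold lower in the excitatory pair (difference -3.15, SE 0.28, adjusted p = 0.000645; scaled -3.69, adjusted p = 0.000587). Per kb Eif5a was 8153 and 7792 times Eif5a2 in the excitatory pair, against 404 and 502 times in the inhibitory pair. On mm10 Eif5a lies at chr11:69916714-69921958 (minus strand) and Eif5a2 at chr3:28781276-28798846 (plus strand). No Eif5a2 window occurs in another gene's transcripts.

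Eif6 encodes a protein that keeps the large ribosomal subunit from joining too early. It had 12.06 and 12.06 in the excitatory pair and 10.46 and 10.41 in the inhibitory pair, 3.07-fold higher in the excitatory pair (difference 1.62, SE 0.15, adjusted p = 0.000745; scaled 1.08, adjusted p = 0.00375). The gene lies at chr2:155819832-155826925 (minus strand), and 138 bases of its exons overlap an antisense gene.

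**Figure D4:**
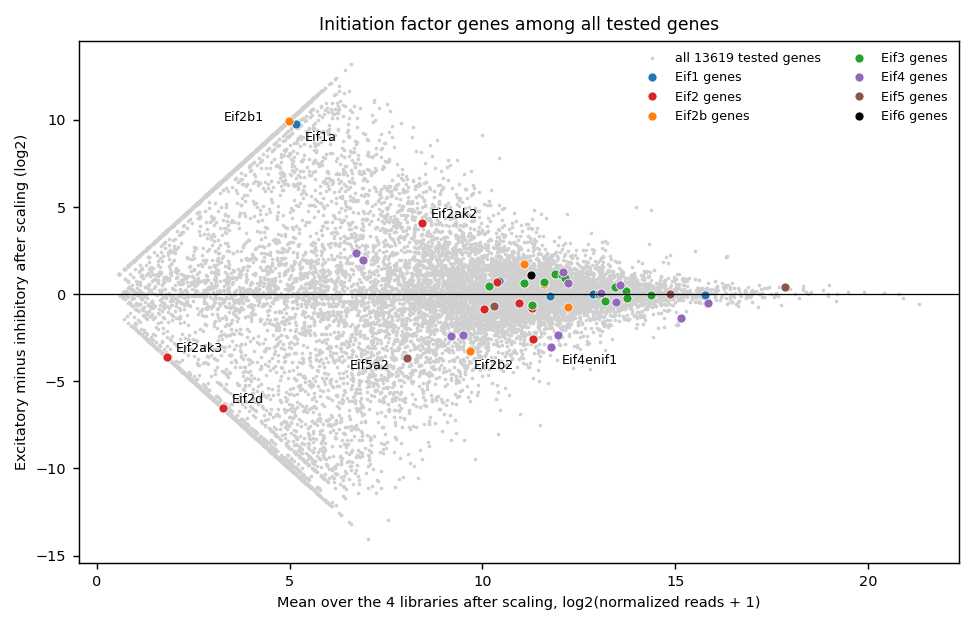
Scaled difference, excitatory minus inhibitory in log2 units, against the mean scaled value of the 4 libraries, for all 13619 tested genes and, in colour, the 50 tested initiation factor genes. The coloured points lie within the cloud of all genes, and the straight edges are genes listed at 0 in both libraries of a pair, Eif2b1 and Eif2d among them.

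The plot against all genes marks the initiation factor genes alone. Of 26 genes whose proteins bind or act with the factors, 10 were higher and 6 lower in the excitatory pair (38.5% and 23.1%, against 45% and 26.8% of all tested genes). After scaling 5 were higher and 10 lower (19.2% and 38.5%, against 32.4% and 33.5%). Dhx29, a helicase that helps scanning through structured leaders, had 11.52 and 11.65 in the excitatory pair, and the tables list it at 0 for both inhibitory libraries (adjusted p = 9.49e-05, scaled 0.000124). Fmr1, whose protein represses translation at synapses, had 2.39 and 2.89 in the excitatory pair and 9.99 and 9.78 in the inhibitory pair (difference -7.25, SE 0.35, adjusted p = 0.000126; scaled -7.74, adjusted p = 0.00015). Larp4, which binds poly(A) and its binding protein, had 12.43 and 12.51 in excitatory and 5.65 and 7.13 in inhibitory libraries (difference 6.08, SE 0.53, adjusted p = 0.000608; scaled 5.54, adjusted p = 0.000971), a call lost without excitatory 1 (adjusted p = 0.0656) or excitatory 2 (adjusted p = 0.0666). Mknk1, which encodes the eIF4E kinase MNK1, was at 0 in the excitatory pair and had 5.02 and 4.39 in the inhibitory pair (adjusted p = 0.000616, scaled 0.000701).

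Of 12 elongation and termination genes 8 were higher and 1 lower in the excitatory pair (66.7% and 8.33%, against 45% and 26.8% of all tested genes). After scaling 3 were higher and 1 lower (25% and 8.33%, against 32.4% and 33.5%). Eef1a1, which brings tRNAs to the elongating ribosome, had 16.75 and 16.72 in excitatory and 16.28 and 16.27 in inhibitory libraries (difference 0.46, SE 0.049, adjusted p = 0.00118; scaled -0.085, adjusted p = 0.273). The translocase gene Eef2 had 15.09 and 15.10 in excitatory and 14.46 and 14.38 in inhibitory libraries (difference 0.67, SE 0.078, adjusted p = 0.00152; scaled 0.13, adjusted p = 0.294). Both passed as deposited only. Of the genes of the release factor eRF3, Gspt2 had 8.90 and 8.45 in the excitatory pair, and the tables list it at 0 for both inhibitory libraries (adjusted p = 0.00010, scaled 0.000131). Gspt1 had 13.08 and 13.39 in excitatory and 11.72 and 11.44 in inhibitory libraries (difference 1.65, SE 0.18, adjusted p = 0.00128; scaled 1.11, adjusted p = 0.00958), a call lost without excitatory 2 (adjusted p = 0.0525) or inhibitory 2 (adjusted p = 0.0512).

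The integrated stress response runs through eIF2 phosphorylation, and its listed genes include some that act on that step, such as Ppp1r15a. Of 18 tested genes of this response and of mTORC1 signalling, 9 were higher and 6 lower in the excitatory pair (50% and 33.3%, against 45% and 26.8% of all tested genes). After scaling 6 were higher and 8 lower (33.3% and 44.4%, against 32.4% and 33.5%). Atf4, a transcription factor whose mRNA is translated better when eIF2 is phosphorylated, had 13.52 and 13.29 in the excitatory pair and 10.88 and 11.13 in the inhibitory pair (difference 2.40, SE 0.17, adjusted p = 0.00032; scaled 1.86, adjusted p = 0.000562). Asns, a target of ATF4 that makes asparagine, had 11.82 and 11.55 in excitatory and 5.08 and 4.85 in inhibitory libraries (difference 6.72, SE 0.27, adjusted p = 9.49e-05; scaled 6.19, adjusted p = 0.000134). Chac1, another target, which breaks down glutathione, went the other way with 0 and 0.35 in excitatory and 9.24 and 8.58 in inhibitory libraries (adjusted p = 0.000121, scaled 0.000154). Ppp1r15a, the subunit GADD34 of the phosphatase that acts on eIF2, was at 0 in the excitatory pair and had 9.34 and 9.08 in the inhibitory pair (adjusted p = 9.49e-05, scaled 0.000124). Phosphorylation of eIF2 was not measured.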

How the data were processed

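RNA of the picked cells was turned into cDNA and libraries with the SMART-seq v4 and Nextera XT kits, per the labels' protocols. The values are what the authors deposited, log2(normalized reads + 1) for each gene of each library; that base and added 1 follow from evenly spaced low values. TopHat, edgeR and the build mm10 appear in the submitters' processing notes without roles. How reads were counted and scaled, and with which annotation, is not given in the sources used here. Depth was estimated as summed linear values over the spacing of the low ones, and no counting interval was computed.

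In R 4.3.3, limma 3.58.1 with a mean-variance trend was fitted to the 13619 genes that reached 1 in 2 or more libraries, adjusting by Benjamini and Hochberg over all of them, with a threshold of 0.05. Every adjusted p in the text is from this fit, with 2 exceptions. Those called scaled are from the same fit after median-of-ratios scaling of linear values. Those given for a call lost without a library are from the fit that leaves that library out. Folds are on the log2(value + 1) scale, which understates changes of low genes. Levels per kb divide linear values by the union exon length in GENCODE M21, which may not be the authors' annotation. Exon overlaps with other genes are stated for some members only, and others such as Eif3j1 (1175 bases) and Eif4a2 (811 bases) have them too. Any member could be named, and of each other pathway list the 4 genes with the smallest p. Members and lists were chosen with earlier results of these data known. Alternatives were upper-quartile scaling, no filter or a filter at 5, a pseudocount of 10, no trend, each library left out, and a replicate block. Over estimated reads, libraries of a pair differed by 39.8 (excitatory) and 49.5 (inhibitory) times counting error in median chi-square, so none was treated as a copy.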

Additional observations from a re-analysis of the deposited data

How the results depend on the processing

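Calls of the initiation factor genes depended most on scaling and on single libraries. The 28 genes higher in the excitatory pair became 16 with median-of-ratios and 16 with upper-quartile scaling, and the 10 lower ones became 14 and 16, since both scalings lower the difference of each of the 50 tested members. With single libraries left out, 14 to 17 were higher and 6 to 8 lower, and over all genes 3530 to 4241 were higher and 2310 to 2627 lower; these fits assume that the lone library varies like the other pair. Each left-out library ended 13 to 18 calls. With no filter, a filter at 5, a pseudocount of 10 or no trend, 22 to 28 were higher and 9 to 10 lower. Differences that changed sign with median-of-ratios and with upper-quartile scaling were -0.055 and -0.10 for Eif1, -0.12 and -0.17 for Eif1ad, -0.49 and -0.53 for Eif2a, -0.38 and -0.42 for Eif3e, -0.23 and -0.27 for Eif3i, -0.076 and -0.12 for Eif3k, -0.44 and -0.49 for Eif4a1 and -0.50 and -0.55 for Eif4a2; with upper-quartile scaling alone, -0.031 for Eif1b, -0.047 for Eif3f and -0.035 for Eif5. Of small differences whose sign changed without some library, the range was -0.19 to 0.30 for Eif2a, -0.37 to 0.024 for Eif2b4, -0.33 to 0.21 for Eif3j1, -0.33 to 0.21 for Eif3j2, -0.096 to 0.30 for Eif4a1, -0.047 to 0.13 for Eif4a2 and -0.32 to 0.049 for Eif5b. The replicate numbers were not shown to pair libraries, as gaps within the pairs correlated at -0.0019 across genes; with the replicate block 28 members were higher and 10 lower, 6094 and 3688 of all genes, and no member's call changed. Listed zeros limit what these depths show of Eif2ak4, Eif4e1b, Eif4ebp2 and Eif4ebp3.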
